A study of Mus musculus with 4 samples.

Results

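Enzymes that break down amino acids were examined in livers of Wrn mutant and wild-type mice. The genes were chosen by symbol from the authors' deposited gene table, and 40 of the 42 listed enzymes had a probe there. The table named 20909 genes in all. Haao and Amt were not analysed here. The 40 enzymes fall into branches for phenylalanine and tyrosine (4 genes), tryptophan (6), histidine (4), serine and glycine (4), glutamine, glutamate, alanine and aspartate (5), methionine and transsulfuration (6), branched-chain amino acids (8), proline (2) and lysine (1).

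The mutant carried an altered Wrn, a RecQ DNA helicase whose human counterpart is lost in Werner syndrome, and the labels do not state the change in the gene. Mutant and wild-type animals were C57Bl/6 males of 3 months, untreated, fed freely and kept under reversed lighting (12 h light, 12 h dark). Each of 4 two-colour Agilent arrays compared the RNA of 1 mutant liver with that of 1 wild-type liver, and the labels call these 4 pairs biological replicates. The mutant RNA carried Cy3 in pairs 1 and 2 and Cy5 in pairs 3 and 4. Values are log2 ratios, read as mutant over wild type. That reading is likely and not stated by the files. It rests on the order of genotypes in the sample titles and table name, and every sign would turn if the wild type were the numerator. Precision is limited by there being 4 arrays.

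The liver is the main site of amino acid breakdown. Many branches begin by removing the amino group, and they end in fumarate, pyruvate, acetyl-CoA or another intermediate that can be burned or turned into glucose or ketone bodies. Several entry enzymes, tyrosine aminotransferase among them, are classical targets of glucocorticoids and glucagon. Histidine ammonia-lyase, serine dehydratase and liver glutaminase are made mainly by hepatocytes near the portal vein.

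Most of these enzymes read slightly higher in the mutant, and no single one passed the test. The mean log2 ratio was above 0 for 33 of the 40 genes, or 82.5%, against 53.4% of the 17686 named genes measured in all pairs. The median of the 40 means was 0.18, with a range from -0.98 to 0.55, against 0.041 for all named genes. In all, 13 of 40 (32.5%) were higher in all 4 pairs, against 10.9% of named genes. Only 1 of 40 (2.5%), Acmsd, was lower in all 4 pairs, against 10.1% of named genes. The remaining 26 had mixed signs.

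Bright probes gave more uniform signs over all named genes. All 40 enzyme probes lay above the median brightness of named genes, which was 6.40 as average log2 intensity, with a range from 7.29 for Kmo to 15.74 for Hpd. Among the 2565 named genes with an average intensity above 10 and 4 values, 19.1% were higher in all pairs, 16.5% were lower in all pairs and 51.2% had a mean above 0. This brighter background was chosen after the data were seen. It compares with 33 of the enzymes, of which 13 were higher in all pairs, 0 were lower in all pairs and 29 had a mean above 0. The other 7 enzymes, Kmo, Kynu, Acmsd, Sds, Sdsl, Dbt and Aldh6a1, had dimmer probes. The plot of mean ratio against brightness shows most of the enzymes as a band just above 0 at the bright end.

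**Figure D1:**
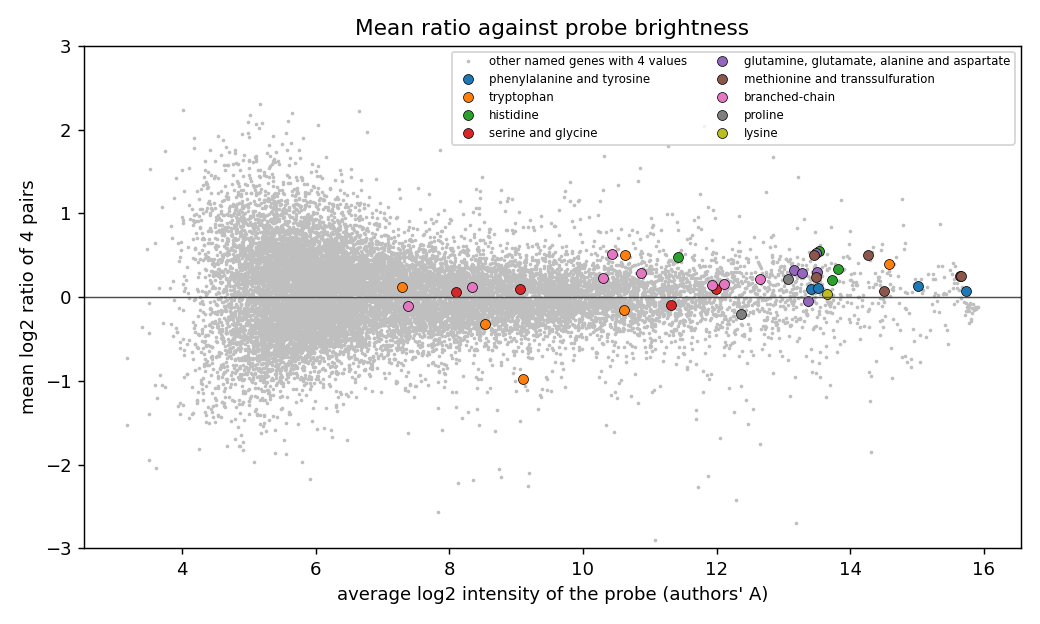
Mean log2 ratio of the 4 pairs (vertical axis) against the authors' average log2 intensity of the probe (horizontal axis). Coloured points are the 40 enzymes by branch, grey points the other named genes with 4 values, of which 6 lie outside the plotted range. Of the 40 enzymes 33 lie above 0, and Acmsd stands lowest at -0.98.

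Fitted with limma and a dye term, 0 of the 40 enzymes reached an adjusted p under 0.05, as did 0 of 40238 probes (0%). The lowest adjusted p among the enzymes was 0.736. At an unadjusted p under 0.05 there were 5 enzymes on the higher side, Uroc1, Gls2, Afmid, Cth and Ivd, and 1 on the lower side, Acmsd. The corresponding shares of named genes were 4.46% higher and 4.36% lower, and of the brighter genes 4.56% and 5.26%. For a single gene, exact sign flipping (two-sided) has a smallest possible p of 0.125, which each gene with 4 ratios of one sign reached. Without pair 4 the median of the 40 enzymes was 0.12, and without pair 1 it was 0.24. In fits that leave out a pair, the single remaining array of its dye orientation counted as much as the other two together. The count lower in every remaining pair was 4 without pair 4, 3 without pair 2 and 3 without pair 3.

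**Figure D2:**
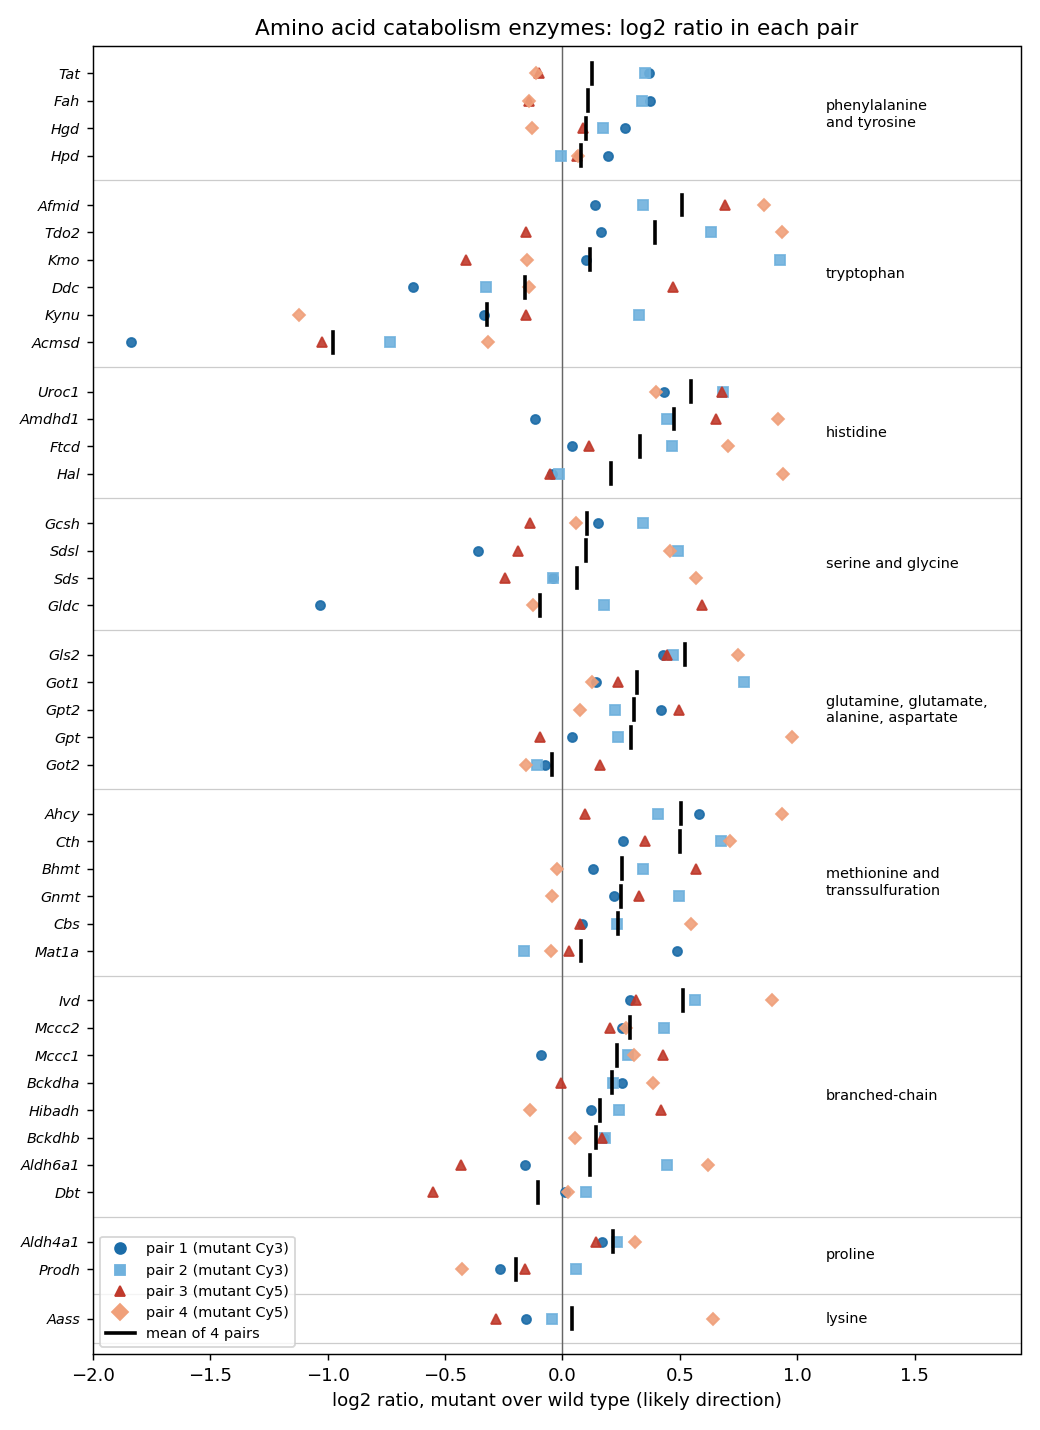
Log2 ratio (horizontal axis) of each of the 40 enzymes in pairs 1 to 4, grouped by branch and ordered by mean within a branch; symbols mark the pairs and black bars the mean of 4 pairs. Acmsd lies below 0 in every pair, and Uroc1, Gls2, Afmid, Cth and Ivd lie above 0 in every pair.

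The sequences before the transcription start are shown as examples for 3 of these 6 genes, Uroc1, Afmid and Ivd, from the RefSeq table of build GRCm38.p6. The choice does not cover the lower side. Cth and Gls2 had no entry. Each stretch is the 250 bases up to the start, on the plus strand, at chr6:90333039-90333288 for Uroc1, chr11:117825669-117825918 for Afmid and chr2:118861744-118861993 for Ivd. Capitals mark matches on either strand to 7 short motifs, which are the TATA box TATAAA, the CCAAT box CCAAT, the HNF1 half-site GTTAAT, the forkhead site TGTTTAC, the nuclear receptor half-site AGGTCA, the glucocorticoid receptor half-site AGAACA and the CREB half-site TGACG. No 2 of the marked matches overlap.
Uroc1: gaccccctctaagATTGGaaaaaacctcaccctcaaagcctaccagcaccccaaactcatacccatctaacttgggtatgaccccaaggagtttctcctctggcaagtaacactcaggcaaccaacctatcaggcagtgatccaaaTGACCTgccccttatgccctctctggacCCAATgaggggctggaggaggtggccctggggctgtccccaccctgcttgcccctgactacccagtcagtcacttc
Afmid: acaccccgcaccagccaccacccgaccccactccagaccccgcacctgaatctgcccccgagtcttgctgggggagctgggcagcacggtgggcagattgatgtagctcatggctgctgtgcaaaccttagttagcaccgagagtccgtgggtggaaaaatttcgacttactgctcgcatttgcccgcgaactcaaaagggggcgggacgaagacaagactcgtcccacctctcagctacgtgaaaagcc
Ivd: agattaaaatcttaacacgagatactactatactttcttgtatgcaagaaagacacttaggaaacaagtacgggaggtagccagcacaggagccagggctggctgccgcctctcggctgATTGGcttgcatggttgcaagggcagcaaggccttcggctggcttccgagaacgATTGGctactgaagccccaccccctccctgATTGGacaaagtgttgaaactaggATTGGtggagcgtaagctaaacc

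The matched letters differed among these windows. Uroc1 held a nuclear receptor half-site that begins 104 bases before the start and CCAAT boxes at 237 and 76 bases. Ivd held 4 CCAAT boxes, at 131, 77, 47 and 23 bases, and Afmid held none of the 7 motifs. Over 35 windows of the 32 enzymes in the table, the CCAAT letters occurred in 62.9% and the nuclear receptor half-site in 37.1%, against 33.8% and 14% of all 32851 windows. The glucocorticoid receptor half-site occurred in 1 enzyme's window (2.86%, against 16.1%), the TATA box in 17.1% (12.4%), the HNF1 half-site in 8.57% (6.43%), the CREB half-site in 8.57% (17.8%) and the forkhead site in 2.86% (3.17%). These are matches of letters and were not tested.

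The tryptophan branch held both the lowest enzyme and one of the highest, and its median was -0.022. That sign rested on single pairs: leaving out pair 1 gave 0.12 and leaving out pair 4 gave 0.022. Acmsd encodes the decarboxylase that diverts an intermediate of tryptophan breakdown away from NAD synthesis and towards complete oxidation. Its log2 ratios were -1.84, -0.74, -1.02 and -0.32 in pairs 1 to 4. All 4 lay below 0, and pair 1 was the lowest. The mean was -0.98 ± 0.64 (SD, n = 4), a level 0.507 times that of the wild type, with a standard error of 0.27 and a 95% interval from -1.73 to -0.22 (limma, adjusted p = 0.736). Without pair 1 the value was -0.70, and without pair 2 it was -1.25.

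Afmid, the formamidase of the second step of the kynurenine pathway, went the other way. Its ratios were 0.14, 0.34, 0.69 and 0.86, and both Cy5 pairs lay above both Cy3 pairs. The mean was 0.51 ± 0.33 (SD, n = 4), or 1.42-fold, with a 95% interval from 0.089 to 0.93 (limma, adjusted p = 0.736). That interval leaves out the spread between the dye orientations. Tdo2, the liver dioxygenase that opens the pathway, had a mean of 0.39 ± 0.48, with pair 3 below 0 at -0.15 and pair 4 highest at 0.94. The other enzymes had mixed signs. Kmo, the kynurenine hydroxylase, was at 0.12 and Kynu, which releases anthranilate or hydroxyanthranilate, at -0.32. Ddc, the aromatic amino acid decarboxylase that makes amines instead of feeding this pathway, was at -0.16.

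The histidine branch had a median of 0.40, the highest over all 4 pairs, and all 4 of its enzymes had means above 0. Leaving out pair 4 gave 0.30, below the 0.35 of the glutamine group in the same fit, and leaving out pair 2 gave 0.28. Uroc1, urocanate hydratase of the second step, had ratios of 0.43, 0.68, 0.68 and 0.40. These lay close together and all above 0, with a mean of 0.55 ± 0.15 (SD, n = 4), or 1.46-fold, the largest mean of the 40. Its 95% interval ran from 0.11 to 0.99 (limma, adjusted p = 0.736). Ftcd, which transfers the last carbon of histidine to folate, had ratios of 0.040, 0.47, 0.11 and 0.70. It was above 0 in each pair but near 0 in pair 1, with a mean of 0.33 ± 0.31. Amdhd1, the imidazolonepropionase between them, was at 0.48 ± 0.44, with pair 1 at -0.12 and pair 4 at 0.92. Hal, the ammonia-lyase at the entry, was near 0 in pairs 1 to 3 and at 0.94 in pair 4. The branch median by pair was -0.0016, 0.46, 0.38 and 0.81, so pair 1 alone lay at about 0.

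The glutamine, glutamate, alanine and aspartate branch had a median of 0.30. Gls2, the liver glutaminase that frees ammonia from glutamine, had ratios of 0.43, 0.47, 0.44 and 0.75. Pairs 1 to 3 were nearly equal and pair 4 was higher, with a mean of 0.52 ± 0.15 (SD, n = 4), or 1.44-fold, and a 95% interval from 0.097 to 0.95 (limma, adjusted p = 0.736). Both transaminases exist as a pair of isoenzymes. Got1, the cytosolic aspartate aminotransferase, had ratios of 0.14, 0.77, 0.24 and 0.12, all above 0, with a mean of 0.32 ± 0.31. Got2, its mitochondrial counterpart, was at -0.044 ± 0.14, with a 95% interval from -0.47 to 0.38. The intervals of Got1 and Got2 overlapped, and their difference was not tested.

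Gpt2, the mitochondrial alanine aminotransferase, had ratios of 0.42, 0.22, 0.50 and 0.075. All were above 0, with a mean of 0.30 ± 0.19 (SD, n = 4). Gpt, the cytosolic form whose protein is measured in blood as a sign of liver damage, had nearly the same mean, 0.29 ± 0.48. That mean rested on pair 4, at 0.98, while the other pairs lay between -0.095 and 0.23.

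All 6 enzymes of methionine breakdown and transsulfuration had means above 0, with a median of 0.25. The branch median was above 0 in every pair, at 0.24, 0.38, 0.21 and 0.26. Cth, cystathionine gamma-lyase, which releases cysteine, had ratios of 0.26, 0.68, 0.35 and 0.71. All lay well above 0, with a mean of 0.50 ± 0.23 (SD, n = 4), or 1.41-fold, and a 95% interval from 0.017 to 0.98 (limma, adjusted p = 0.736). Cbs, cystathionine beta-synthase just before it, had ratios of 0.085, 0.23, 0.074 and 0.55. Each exceeded 0, and they averaged 0.23 ± 0.22.

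Ahcy, which hydrolyses S-adenosylhomocysteine, had ratios of 0.58, 0.41, 0.096 and 0.93. They spread widely but stayed above 0, with a mean of 0.50 ± 0.35 (SD, n = 4). Gnmt, the glycine methyltransferase that uses up S-adenosylmethionine, was at 0.25 and Bhmt, which remakes methionine with betaine, also at 0.25. Both were above 0 in pairs 1 to 3 and slightly below 0 in pair 4, at -0.044 and -0.024. Mat1a, which makes S-adenosylmethionine, was at 0.077 ± 0.29, with pair 1 at 0.49 and the others between -0.16 and 0.029.

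The branched-chain branch had a median of 0.19, with 7 of 8 means above 0 and 3 genes above 0 in all pairs. Its median was above 0 in each pair, at 0.15, 0.26, 0.18 and 0.29. Ivd, isovaleryl-CoA dehydrogenase of leucine breakdown, had ratios of 0.29, 0.56, 0.31 and 0.89. All were above 0, with a mean of 0.51 ± 0.28 (SD, n = 4), or 1.43-fold, and a 95% interval from 0.0053 to 1.02 (limma, adjusted p = 0.736). Mccc1 and Mccc2 encode the subunits of methylcrotonyl-CoA carboxylase, the next step for leucine. Mccc2 had ratios of 0.26, 0.43, 0.20 and 0.27 and a mean of 0.29 ± 0.10, and Mccc1 was at 0.23 with pair 1 at -0.090.

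The branched-chain ketoacid dehydrogenase complex, which commits leucine, isoleucine and valine to oxidation, showed smaller values. Bckdhb, its E1 beta subunit, had ratios of 0.18, 0.18, 0.17 and 0.055. They lay above 0 and averaged 0.14 ± 0.060 (SD, n = 4). The E1 alpha subunit gene Bckdha was at 0.21, and Dbt, the E2 core, at -0.10. Dbt was near 0 to 0.10 in pairs 1, 2 and 4 and at -0.55 in pair 3. In valine breakdown, Hibadh was at 0.16 and Aldh6a1 at 0.12, both with mixed signs.

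The phenylalanine and tyrosine branch lay close to 0, with means from 0.078 to 0.13. Tat, the aminotransferase that starts tyrosine breakdown, had ratios of 0.37, 0.35, -0.10 and -0.11. The Cy3 pairs lay above 0 and the Cy5 pairs below, so the mean of 0.13 ± 0.27 (SD, n = 4) hides a split by dye orientation. Fah, which makes fumarate and acetoacetate in the last step, had the same form, with 0.37, 0.34, -0.14 and -0.14. Hpd and Hgd, the dioxygenases of the middle steps, were at 0.078 and 0.099. The 95% interval of Hpd, -0.33 to 0.49, shows the size of change these data could not resolve for a gene of this branch.

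The serine and glycine branch also had values near 0, with a median of 0.081. Sds, the serine dehydratase, was at 0.062 ± 0.35 (SD, n = 4), with pair 4 at 0.57 and the others between -0.24 and -0.039. Sdsl, the related dehydratase-like enzyme, was at 0.10 with 2 pairs on each side of 0. Gcsh, the carrier protein of the glycine cleavage system, had ratios of 0.15, 0.34, -0.14 and 0.057 and a mean of 0.10. Gldc, the decarboxylase of that system, spread most among all 40, from -1.03 in pair 1 to 0.59 in pair 3, with a mean of -0.097 ± 0.69. Its branch median was -0.029 without pair 2, -0.0042 without pair 4 and 0.21 without pair 3.

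In proline breakdown the consecutive enzymes had opposite signs. Aldh4a1, which oxidises the product of the first step to glutamate, had ratios of 0.17, 0.23, 0.14 and 0.31. They were close together and above 0, with a mean of 0.21 ± 0.075 (SD, n = 4). Prodh, proline dehydrogenase, was at -0.20 ± 0.20, below 0 in all pairs but pair 2. Aass, which begins lysine breakdown, had ratios of -0.16, -0.046, -0.28 and 0.64, so its mean of 0.039 ± 0.41 joined 3 negative pairs and 1 positive one.

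**Figure D3:**
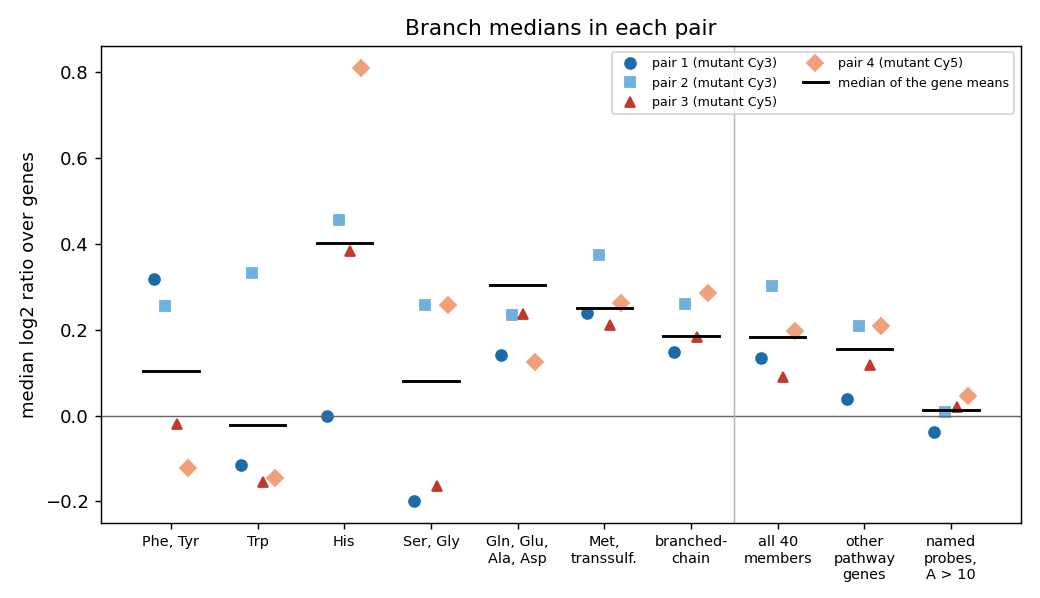
Median log2 ratio over the genes of a branch (vertical axis) in each pair, with black bars for the median of the gene means; proline and lysine, with 2 and 1 genes, are left out. The methionine, branched-chain and glutamine groups lie above 0 in all 4 pairs, while the phenylalanine and tyrosine group lies above 0 in the Cy3 pairs and below 0 in the Cy5 pairs.

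Grouped by place in the pathway, a division chosen after the values were seen and not tested, the 15 enzymes of entry steps had a median of 0.10 and the 23 of later steps a median of 0.21. Leaving out pairs 1 to 4 in turn gave entry medians of 0.20, 0.13, 0.26 and 0.053, so this median moved with single pairs. The later medians were 0.27, 0.18, 0.26 and 0.17 in the same fits. Without pair 3 both medians were thus 0.26, and the gap between the classes closed. Of the entry enzymes 3 were higher in all pairs, namely Gls2, Got1 and Gpt2. That share of 20% lay near the 19.1% of the brighter named genes, and it was 10.9% of all named genes. Of the later ones 10 were higher in all pairs (43.5%) and 1, Acmsd, lower (4.35%, against 10.1% of named genes and 16.5% of the brighter ones). The entry enzymes Tat, Hal, Sds, Mat1a and Aass each had mixed signs. By compartment, the 23 cytosolic enzymes had a median of 0.23 and the 17 mitochondrial ones 0.14. Without pair 4 these medians were 0.12 and 0.11.

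The pairs differed in which enzymes stood high. Pair 2 had 32 of 40 ratios above 0, pair 1 had 27, pair 4 had 26 and pair 3 had 24. Pair 4 held the highest ratio for 17 enzymes and the lowest for 13. Across the 40 enzymes the ratios of different arrays correlated at 0.19 (pairs 3 and 4) to 0.56 (pairs 1 and 2). This is a description across genes that share arrays, and genes are not independent replicates.

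The 2 dye orientations gave similar medians over the set, 0.19 with the mutant in Cy3 and 0.18 with it in Cy5. They came from different animals, so labelling and animal cannot be told apart. By branch they were 0.29 and -0.064 for phenylalanine and tyrosine, 0.12 and -0.059 for tryptophan, 0.21 and 0.49 for histidine, 0.013 and 0.15 for serine and glycine, 0.32 and 0.29 for the glutamine group, 0.30 and 0.29 for methionine and 0.18 and 0.17 for the branched-chain group. Tat, Fah and Kmo were above 0 in both Cy3 pairs and below 0 in both Cy5 pairs.

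**Figure D4:**
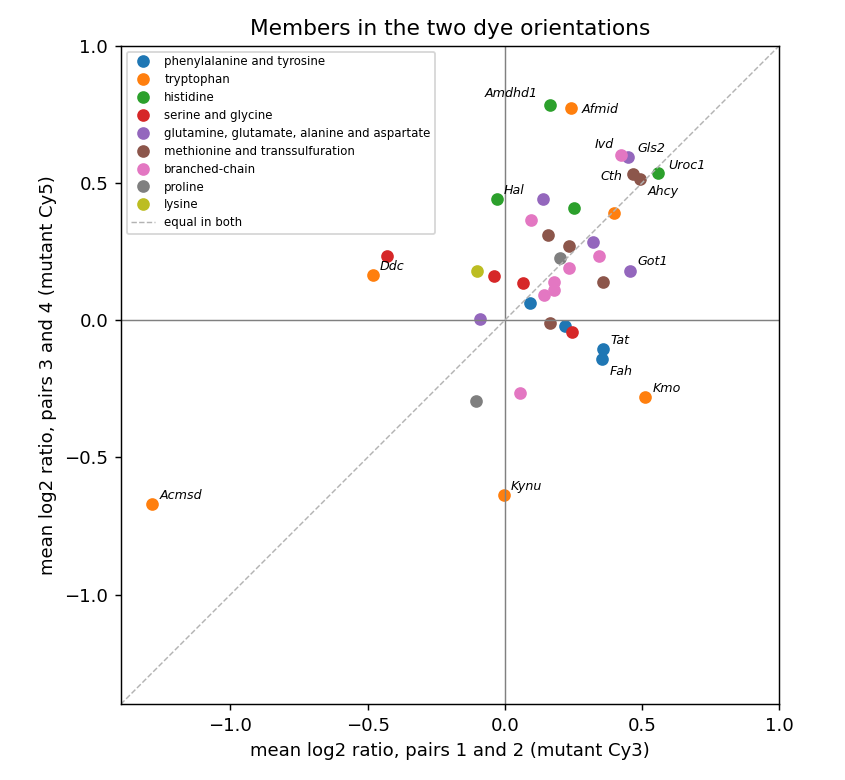
Mean log2 ratio of each enzyme in pairs 1 and 2 (mutant Cy3, horizontal axis) and in pairs 3 and 4 (mutant Cy5, vertical axis), coloured by branch, with a dashed line where both are equal. Acmsd is negative on both axes at -1.29 and -0.67, and Uroc1 is nearly equal on both at 0.56 and 0.54.

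The other genes of these pathways varied by branch. Of 67 with a probe, 64 had 4 values, with a median of 0.16. Of these 46 had a mean above 0, and 17 (26.6%, against 10.9% of named genes) were higher in all pairs. The 8 lower in all pairs (12.5%) lay between the 10.1% of named genes and the 16.5% of the brighter ones. The difference of these genes from the enzymes was not tested. Of the 64, 0 passed the limma test. At an unadjusted p under 0.05 there were 7 of 64 on the higher and 3 of 64 on the lower side. The shares of named genes were 4.46% and 4.36%. The other genes of methionine metabolism did not share the sign of the enzymes above, with a median of -0.027 over 12 genes, 6 of them below 0, and pair medians of -0.27, 0.037, 0.19 and -0.024. The other tryptophan genes had a median of -0.12, with 4 of 5 below 0. Ccbl1 (now Kyat1), a kynurenine aminotransferase, was lowest at -1.56 ± 1.35 (SD, n = 4), with ratios of -3.56, -1.14, -0.62 and -0.92 from a probe with an average log2 intensity of 6.12. Bhmt2, the neighbouring paralogue of Bhmt that uses S-methylmethionine, was at -0.65 ± 0.45 and below 0 in all pairs.

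On the higher side, Hsd17b10 of isoleucine breakdown was at 0.57 ± 0.24 (SD, n = 4). Ppm1k, the phosphatase that activates the branched-chain ketoacid dehydrogenase, was at 0.60 ± 0.56, with pair 4 at 1.43 and the others from 0.27 to 0.37. Bckdk, the kinase that opposes it, was at -0.056 ± 0.23, from a dim probe with an average log2 intensity of 6.20. Bckdk was singled out after its value was seen. Among 15 amino acid transporters the median was 0.20, with 5 higher in all pairs (33.3%, against 10.9% of named genes) and 2 lower (13.3%, against 10.1%). Among the brighter named genes these shares were 19.1% and 16.5%, and the transporters had a median average intensity of 11.5. The mitochondrial glutamate carrier gene Slc25a22 was at 0.57 ± 0.13 and Slc1a1, a plasma membrane glutamate transporter, at -1.32 ± 1.01. Among 16 regulators of these genes, such as Hnf4a, Cebpb and the glucocorticoid receptor gene Nr3c1, the median was 0.23, with 11 means above 0. Hnf4a was the lowest of them at -0.34. Only 1, Klf15, was higher in all pairs (6.25%, against 10.9% of named genes and 19.1% of the brighter ones).

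Bulk liver RNA does not separate a change in the number of cells of a type from a change of RNA per cell. Hepatocyte markers, which include Alb and also Hnf4a, had a median of -0.15 over 11 genes, with 2 means above 0. In all pairs 0 were higher (against 10.9% of named genes) and 3 lower (27.3%, against 10.1%). Among the brighter named genes 19.1% were higher and 16.5% lower in all pairs. The probes of the hepatocyte markers ran in average intensity from 9.07 to 15.91. Kupffer cell and macrophage markers had means above 0 in 11 of 11 genes with a median of 0.64, and by pair 0.72, 1.01, -0.21 and 0.98. Sinusoidal endothelial markers had means above 0 in 8 of 9 (median 0.37) and stellate cell markers in 4 of 8 (0.25). Cholangiocyte markers had 1 of 8 above 0 (-0.45) and B cell markers 5 of 5 (0.91). T cell markers had 3 of 3 (0.22) and kidney tubule markers 0 of 3 (-0.24). Of named genes 53.4% had a mean above 0, near the stellate share of 50%. In all pairs 4 endothelial (44.4%), 4 stellate (50%) and 2 Kupffer cell markers (18.2%) were higher, against 10.9% of named genes. The B and T cell lists each had 1 higher (20% and 33.3%). Of the cholangiocyte markers 4 were lower in all pairs (50%, against 10.1%). Acute phase genes, also made by hepatocytes, had a median of -1.19 over 17 genes. Of them 16 were lower in all pairs (94.1%, against 10.1% of named genes and 16.5% of the brighter ones). The part of these shifts in the values of the amino acid enzymes was not tested.

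**Figure D5:**
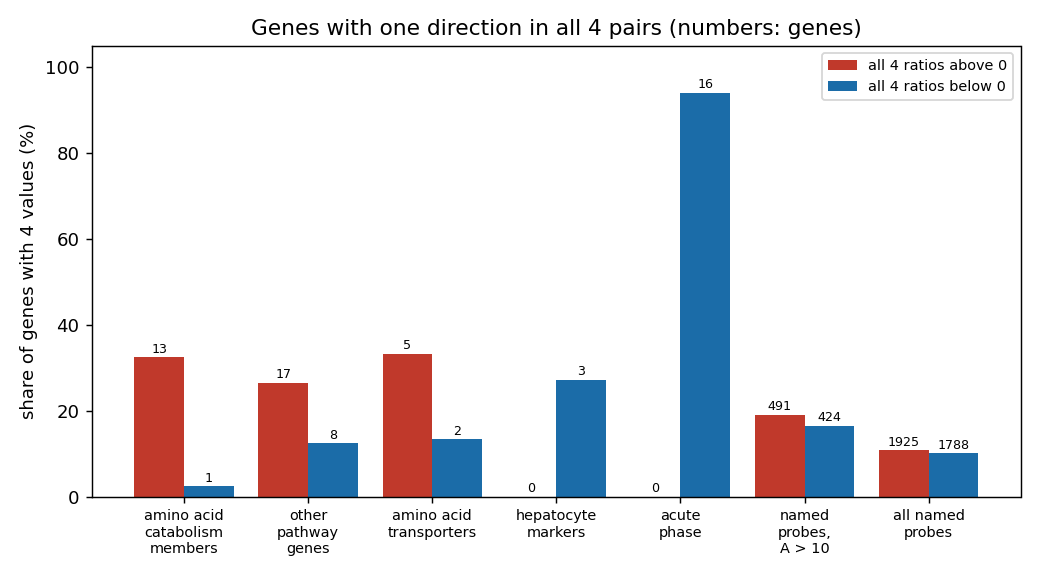
Share of genes with 4 values (vertical axis, %) that were above 0 in all pairs (red) or below 0 in all pairs (blue), with gene counts on the bars. The enzymes show 13 higher and 1 lower, hepatocyte markers 0 and 3, and acute phase genes 0 and 16.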

How the data were processed

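RNA of 4 mutant and 4 wild-type livers was compared on 4 two-colour arrays. For every probe and array the authors deposited a log2 ratio and, per the file headers, an average log2 intensity and a log2 fold change per gene. Limma is named in the submitters' processing notes, and the sources used here do not give its version, the background correction or the normalization. For 17537 of 17686 genes with 4 values, and all 40 enzymes, the mean of the 4 columns equals the authors' deposited fold change within 1e-04, so all columns were read in 1 direction.

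Probes with at least 3 values (40238 of 41174) were fitted in R 4.3.3 with limma 3.58.1 (lmFit, eBayes) on genotype and dye orientation, leaving 2 residual degrees of freedom. P-values were adjusted over all of them (Benjamini-Hochberg). The enzymes had 4 values each. The fit was tested on simulated data. Mean ± SD is over the 4 pairs, and 95% intervals come from limma. Because of the dye term, the intervals leave out the difference between the dye orientations, which may also hold differences between animals. Other lists were matched by symbol and then by accession (GRCm38.p6 names).

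The enzymes and lists were chosen with earlier results of these data known. Named in full were enzymes with 1 direction in all pairs or an unadjusted p under 0.05 and the largest absolute mean of each branch. Other genes were named where all 4 ratios had 1 sign and the absolute mean exceeded 0.5 (at most 4 a list, by p, outside the pathways). Alternatives were no dye term, centred or scaled arrays, other probe sets, robust or intensity-dependent eBayes, array weights, the opposite dye reading, another threshold and leaving out each pair. Results on some withheld items are not reported here.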

Additional observations from a re-analysis of the deposited data

Results flagged for a closer look

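Of 48 results examined, 5 had 1 pair far from the other 3, where chance gives about 2.4. The results come from the same 4 arrays and are not independent, and the excess over that count was not tested. Hal was at 0.94 in pair 4, against -0.055 to -0.016 in the others. Gls2 was at 0.75 in pair 4, against 0.43 to 0.47. Bckdhb was at 0.055 in pair 4, against 0.17 to 0.18. Dbt was at -0.55 in pair 3, against 0.013 to 0.10 elsewhere. The tryptophan branch median reached 0.33 in pair 2 and lay between -0.15 and -0.12 in the other pairs.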

How the results depend on the processing

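The count of 0 enzymes passing the test held under every alternative run, with the lowest adjusted p at 0.131 (Afmid, prior variance following intensity; up to 0.824 in the other fits). Over all probes, 1 passed among named probes brighter than the median and 42 with the prior following intensity, and 0 in the other fits. The opposite reading of the dye swap left 3 enzymes higher in all pairs and 0 lower, turned the sign of 19 means, and gave medians of -0.0032 for all enzymes, -0.16 for histidine, -0.048 for the glutamine group, -0.014 for methionine and 0.024 for the branched-chain group; by construction it subtracts the Cy5 pairs. Centring, scaling, array weights and the other fits of all 4 pairs kept the sign of all 40. Leaving out 1 pair gave 14 to 18 enzymes higher and 1 to 4 lower in all remaining pairs, where fewer signs need to match, and turned 1 to 7 signs. The median ran from 0.12 to 0.24 for all enzymes, 0.24 to 0.35 for the glutamine group and 0.14 to 0.25 for the branched-chain group. The fit is paired by construction, since each ratio is the difference within 1 pair. Signal over background was not analysed here.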

Other observations

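Genes known to answer glucocorticoids or fasting, several of which regulate or accompany amino acid breakdown, did not all share a direction. Of 11 measured genes, 8 had means above 0 (72.7%, against 53.4% of named genes), with a median log2 ratio of 0.35. In all pairs 3 were higher (27.3%, against 10.9% of named genes) and 1 lower (9.09%, against 10.1%). Of the 11, 0 passed the limma test. At an unadjusted p under 0.05 there were 3 higher and 2 lower, where the shares of named genes were 4.46% and 4.36%. G6pc, the glucose-releasing phosphatase, was at 1.68 ± 0.90 (SD, n = 4), Angptl4 at 1.34 ± 0.67 and the clock gene Per1 at 1.04 ± 0.62, while Fkbp5, a glucocorticoid-induced co-chaperone, was at -1.33 ± 0.78. Tat, also a glucocorticoid target, was at 0.13.

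Zone markers also differed within each zone. Oat, which breaks down ornithine near the central vein, was at 1.25 ± 0.39 (SD, n = 4) and Lhpp at 0.84 ± 0.16, against -0.45 ± 0.27 for Glul, glutamine synthetase of the same zone, which was below 0 in all pairs. Cyp7a1, the rate-limiting enzyme of bile acid synthesis, was at 0.79. Near the portal vein, G6pc (above) was the highest of 9 listed genes at 1.68 and Cdh1 the lowest at -0.97 ± 0.15. Sox9 was at -0.53 and the urea cycle genes Cps1 and Ass1 at 0.051 and 0.38, beside Gls2 at 0.52 and Hal at 0.21. Sox9 is also one of the cholangiocyte markers above, whose median was -0.45, and the part of those cells in its value was not tested. Glul, Cps1 and Ass1 were singled out after their values were seen. The medians of the lists were 0.18 over 11 pericentral genes and -0.099 over 9 periportal genes, and 0 of either list passed the limma test. At an unadjusted p under 0.05 there were 3 higher and 1 lower pericentral genes, and 1 higher and 2 lower periportal genes. The shares of named genes were 4.46% higher and 4.36% lower.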
